A study of Rattus norvegicus with 6 samples.

Results

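The 29 genes described here encode enzymes that build cholesterol and fatty acids, the proteins that control their transcription, and 1 sterol carrier. They were taken by rat symbol from the 38445 genes counted in amygdala RNA, and all 29 were found and were expressed highly enough to be tested. By role they comprise 6 genes of the mevalonate pathway, 11 of the steps from squalene to cholesterol, 5 of the control machinery, 6 of fatty acid synthesis and 1 of sterol transport. Adult male wild-type Sprague Dawley rats received an intraperitoneal injection of saline (control group) or of ethanol at 1 g/kg (ethanol group), and the amygdala was dissected after 1 h. Each library was made from the pooled RNA of 2 rats, with 3 control and 3 ethanol libraries that share no animals. The comparison asks how gene expression in the amygdala differs soon after a low dose of ethanol that reduces anxiety-like behavior.

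Cells make cholesterol from acetyl-CoA through mevalonate, isoprenoid phosphates, squalene and lanosterol, and they make long-chain fatty acids from the same precursor. Both branches are switched on by the sterol regulatory element-binding proteins (SREBPs), membrane-bound transcription factors that the escort protein Scap carries out of the endoplasmic reticulum when sterol is scarce and that the Insig proteins hold back when it is plentiful. The adult brain makes its own cholesterol, because lipoproteins of the blood do not cross the blood-brain barrier, and oligodendrocytes and astrocytes are its main producers.

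Assigned reads per library lay between 62576504 and 70755739, and 3 counts, the fewest taken as detection, were worth 0.0424 to 0.0479 CPM (counts scaled to a common library size), which covers counting error only. Markers of neurons, astrocytes and oligodendrocytes were abundant in every library, and all 6 amygdala neuron markers were detected, with a summed level of 342 to 350 TPM (a level corrected for exon length that sums to the same total in every library) in controls and 330 to 398 TPM after ethanol. The libraries differed in markers of neighboring tissue. Each of 6 choroid plexus markers was lower after ethanol, with summed levels of 1593 to 3605 TPM in controls against 24.8, 22.8 and 1488 TPM in ethanol replicates 1, 2 and 3, and none of the 6 was at 0 in any library. All 4 ependymal markers were also lower, each at an unadjusted p below 0.05, at 31.2 to 46.3 TPM in sum in controls and 26.4 to 29.5 TPM after ethanol. The part of this tissue in the values below was not tested. In bulk RNA, fewer cells of a type and less RNA per cell cannot be told apart.

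Most genes of the cholesterol branch had slightly higher means after ethanol, and those of the fatty acid branch had a median difference near 0. Among the genes with higher means, the largest differences were those of Insig1 and Stard4, a brake on the SREBPs and a sterol carrier, at 21.9% and 22.7%. Of the 29 genes, 25 (86.2%) had a log2 fold change above 0, against 52.6% of the 18141 genes tested. With library size alone as scaling there were 21, against 41.7%. With single libraries left out there were 21 (without ethanol replicate 3, against 48.9%) to 26 (without ethanol replicate 1, against 53.1%). The median log2 fold change was 0.087 for the 29 genes and 0.006 for all genes tested. None of these differences passed the test over all genes. By the quasi-likelihood test of edgeR, 0 of the 29 genes and 0% of all genes tested had an adjusted p below 0.2, the threshold of the study, and the adjusted p was 1.0 for each of the 29. At an unadjusted p below 0.05 there were 4 of the 29 genes, all higher after ethanol (Insig1, Stard4, Dhcr7 and Fdft1), against 1.57% of all genes higher and 2.58% lower. DESeq2 and edgeR's likelihood ratio test called 75 and 77 of the 18141 genes at the same threshold. Neither called any of the 29, which is near so small a share. In 6 of the 29 genes every ethanol library lay above every control library, against 3.65% of all genes, and in 0 of the 29 did every ethanol library lie below, against 5.19%. These 6 were Insig1, Stard4, Dhcr7, Hmgcs1, Cyp51 and Msmo1. The 29 genes share regulators and libraries, so they are not independent observations.

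**Figure D1:**
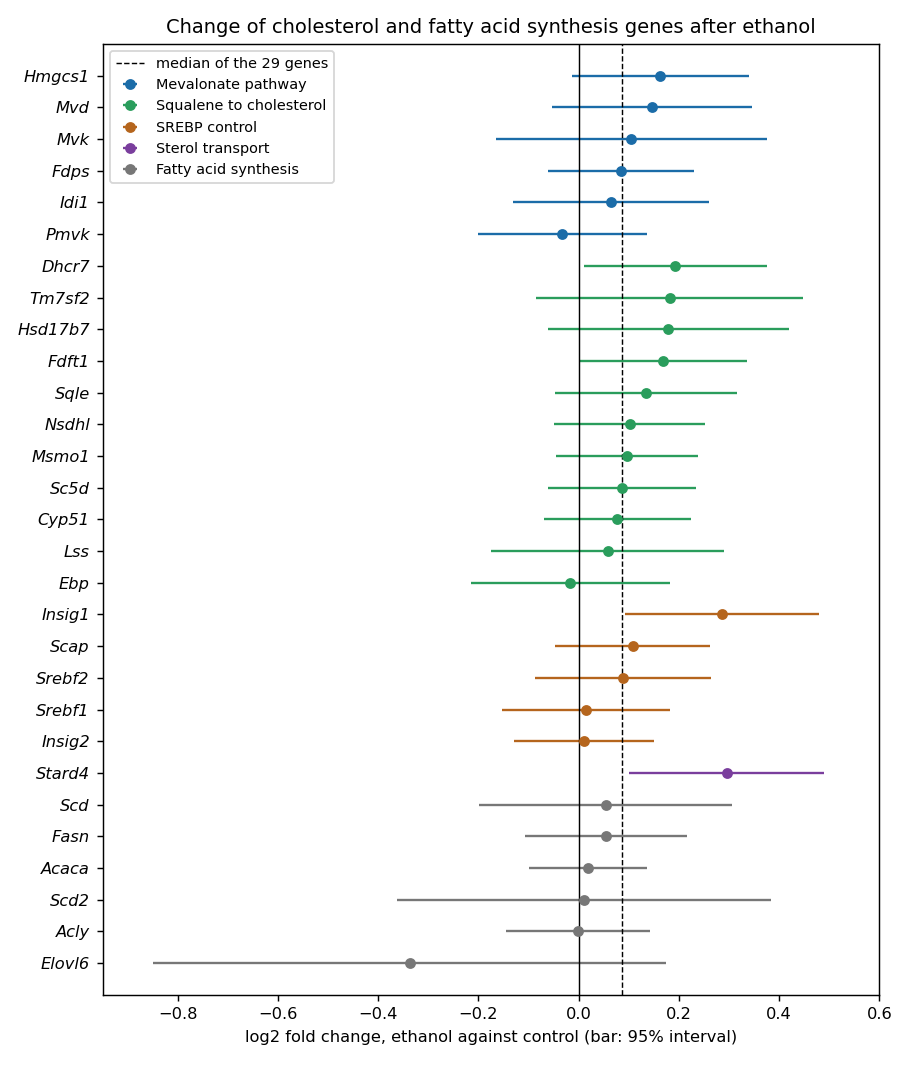
Log2 fold change of each of the 29 genes, ethanol against control, from edgeR's quasi-likelihood fit on 3 libraries per group, with points colored by role and bars for the 95% interval. Most cholesterol genes lie right of 0 around the median of 0.087 (dashed), fatty acid genes scatter around 0, and 4 intervals, those of Insig1, Stard4, Dhcr7 and Fdft1, leave out 0.

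The test limits how large a change could have been missed. For 28 of the 29 genes the 95% interval of the log2 fold change lay within a change of 1.5-fold in either direction, the exception being Elovl6, which had few counts. The median standard error was 0.08 for the 29 genes and 0.11 for all genes tested.

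Promoters of 4 genes whose groups did not overlap are shown, because the SREBPs and their partner factors are known to act at such sites on genes of this pathway. They are the 250 bases before the annotated start of each gene in RefSeq, on GRCr8, written 5′ to 3′ along the gene, with motif letters in capitals. The motifs, searched on both strands, were an SRE-like element (TCACNCCAC), the palindromic E-box (CACGTG), the CCAAT box (CCAAT) that binds NF-Y, a partner of the SREBPs, and the GC box (GGGCGG) that binds Sp1. Motifs may overlap one another. The windows lie at chr4:8057770-8058019, minus strand (Insig1), chr2:53382054-53382303, plus strand (Hmgcs1), chr16:29746863-29747112, plus strand (Msmo1) and chr1:208444184-208444433, plus strand (Dhcr7).
Insig1: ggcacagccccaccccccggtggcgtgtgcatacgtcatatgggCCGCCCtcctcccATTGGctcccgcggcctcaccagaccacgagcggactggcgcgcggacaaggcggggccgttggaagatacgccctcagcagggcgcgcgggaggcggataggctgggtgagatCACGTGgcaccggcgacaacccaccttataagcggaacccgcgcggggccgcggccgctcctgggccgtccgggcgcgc
Hmgcs1: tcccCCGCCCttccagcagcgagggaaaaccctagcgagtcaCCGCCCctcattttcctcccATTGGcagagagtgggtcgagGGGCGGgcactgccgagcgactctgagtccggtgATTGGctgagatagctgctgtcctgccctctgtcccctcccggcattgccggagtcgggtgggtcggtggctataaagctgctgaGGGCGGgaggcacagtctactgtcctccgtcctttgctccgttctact
Msmo1: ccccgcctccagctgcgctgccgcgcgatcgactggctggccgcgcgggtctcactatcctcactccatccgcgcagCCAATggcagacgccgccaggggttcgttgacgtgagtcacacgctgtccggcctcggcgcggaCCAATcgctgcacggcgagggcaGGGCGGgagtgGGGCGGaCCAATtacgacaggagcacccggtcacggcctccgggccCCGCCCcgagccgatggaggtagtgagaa
Dhcr7: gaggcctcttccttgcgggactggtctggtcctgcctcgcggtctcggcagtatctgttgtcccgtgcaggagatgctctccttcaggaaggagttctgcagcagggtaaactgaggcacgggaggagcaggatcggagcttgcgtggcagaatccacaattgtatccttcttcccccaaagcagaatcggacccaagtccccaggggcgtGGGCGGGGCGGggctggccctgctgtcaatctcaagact

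The Insig1 window held 1 CCAAT box, 1 GC box and 1 E-box, the last beginning 79 bases before the start. Hmgcs1 had 2 CCAAT boxes and 4 GC boxes, Msmo1 3 of each, and Dhcr7 2 GC boxes that overlap and 0 CCAAT boxes. Promoter sequences were matched for 22 of the 29 genes. A CCAAT box was present for 18 of the 22 (81.8%), against 34.15% of promoters of all genes tested and 34.0% of all 33469 promoters. A GC box was present for 17 (77.3%), against 49.8% and 30.5%, and the E-box for 3 (Insig1, Sc5d and Scap), against 7.38% and 5.59%. The SRE-like letters were found in 0 of the 22 and in 0.961% and 0.974% of the comparison promoters. These are matches of letters within a short window and show neither binding nor its absence. The genes without a CCAAT box in the window were Dhcr7, Cyp51, Scap and Scd, and of these Dhcr7 and Cyp51 were among the 6 whose groups did not overlap.

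Levels corrected for transcript length spanned a wide range. Scd2, a stearoyl-CoA desaturase that makes monounsaturated fatty acids in brain, stood far above the others at 1931 ± 281 TPM (SD, n = 3) in controls, and Hmgcs1, the cytosolic HMG-CoA synthase that opens the committed route to mevalonate, came next at 320 ± 17.9 TPM (SD, n = 3). Msmo1, Cyp51, Fdps and Acly followed at 236, 199, 188 and 182 TPM in control means. At the lower end were Hsd17b7 at 8.77 TPM, Stard4 at 8.13 TPM and Elovl6 at 0.958 TPM. Together the 29 genes took 0.598% to 0.721% of the assigned reads of a library in controls and 0.626% to 0.757% after ethanol, so the groups overlapped. Scd2 alone took 0.314% to 0.452%. Without Scd2, the other 28 took 0.284% to 0.289% in controls and 0.294% to 0.305% after ethanol, so that all 3 ethanol libraries lay above the controls. Their summed level was 2226, 2255 and 2267 TPM in the control libraries and 2365, 2436 and 2373 TPM in the ethanol libraries. With Scd2 included the sums overlapped, at 3907 to 4481 TPM in controls and 4135 to 4653 TPM after ethanol. Leaving out Scd2 was not planned beforehand, and these values are given without a test.

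**Figure D2:**
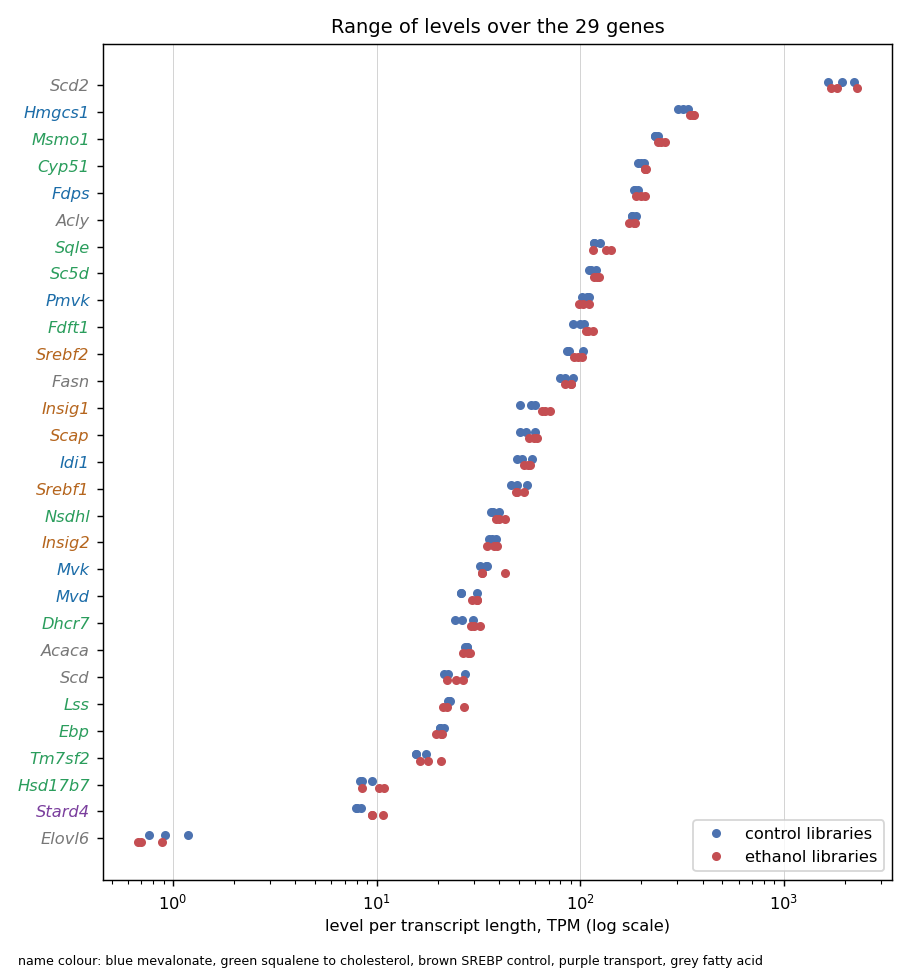
Level of each of the 29 genes in each library, in TPM on a log axis, with control libraries in blue and ethanol libraries in red and gene names colored by role. Levels run from about 1 TPM for Elovl6 to about 1931 TPM for Scd2, and differences between genes are much larger than those between the groups.

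Among the 5 control genes, Insig1 stood out. Insig1 (NCBI gene 64194, chromosome 4 of Rnor_6.0 from 342302 to 350515, 5 exonic blocks) encodes a membrane protein that retains the SREBP-Scap complex and is itself a target of the SREBPs. Its level was 57.0, 51.9 and 46.5 CPM in control replicates 1, 2 and 3 and 61.9, 66.8 and 60.8 CPM in the ethanol replicates. All ethanol values exceeded the highest control. The log2 fold change was 0.29 (standard error 0.08, 95% interval 0.09 to 0.48, edgeR adjusted p = 1.0), and the exact permutation test over the 6 libraries gave p = 0.1, two-sided, which is as low as this design can go. Its paralog Insig2 (chromosome 13 from 37264818 to 37292718), which also retains Scap, was level between the groups, at 45.7, 46.8 and 45.8 CPM in controls and 46.4, 48.9 and 44.0 CPM after ethanol. The log2 fold change of Insig2 was 0.01 (95% interval -0.13 to 0.15). The ratio of Insig1 to Insig2, taken within each library from levels per length and thus free of scaling between libraries, was 1.67, 1.49 and 1.36 in controls and 1.79, 1.83 and 1.85 after ethanol. The ratio was examined after the values of both genes had been seen and is given without a test.

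The transcription factors themselves differed little between the groups. Srebf2 (chromosome 7 from 123381082 to 123438605), whose product chiefly drives sterol genes, was at 190, 216 and 188 CPM in controls and 208, 220 and 203 CPM after ethanol. The groups overlapped through control replicate 2, and the log2 fold change was 0.09 (standard error 0.08, 95% interval -0.09 to 0.26). Srebf1 (chromosome 10 from 46570996 to 46593021), whose product chiefly drives fatty acid genes, was at 80.3, 92.0 and 83.2 CPM in controls and 82.2, 84.4 and 91.5 CPM after ethanol, with a log2 fold change of 0.01 (95% interval -0.15 to 0.18). Per length, Srebf2 exceeded Srebf1 by 1.80 to 1.88 times in controls and 1.76 to 2.07 times after ethanol. Scap (chromosome 8 from 118551869 to 118628650) was at 118 to 133 CPM in controls and 129 to 140 CPM after ethanol, overlapping, with a log2 fold change of 0.11 (95% interval -0.05 to 0.26). These are transcript levels, and the SREBPs are activated by cleavage of the protein, which counts do not measure.

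Stard4 (NCBI gene 291699, chromosome 18 from 25982210 to 25997555) encodes a soluble carrier that moves sterol between membranes and whose gene is a known SREBP target. It was at 17.6, 16.1 and 16.2 CPM in controls and 19.2, 19.7 and 22.4 CPM after ethanol. The groups did not overlap, and ethanol replicate 3 was the highest of the 6 libraries. The log2 fold change was 0.30 (standard error 0.08, 95% interval 0.10 to 0.49, edgeR adjusted p = 1.0), with p = 0.1 from the exact permutation test. Insig1 and Stard4 were the only 2 of the 29 genes with an unadjusted p below 0.05 in the main test and in each of the 13 alternative analyses. The alternatives reuse the same 6 libraries, and the share of all genes that did the same was not determined. Their lowest adjusted p in any alternative was 0.418 for Insig1 and 0.487 for Stard4 (edgeR quasi-likelihood test without ethanol replicate 3).

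**Figure D3:**
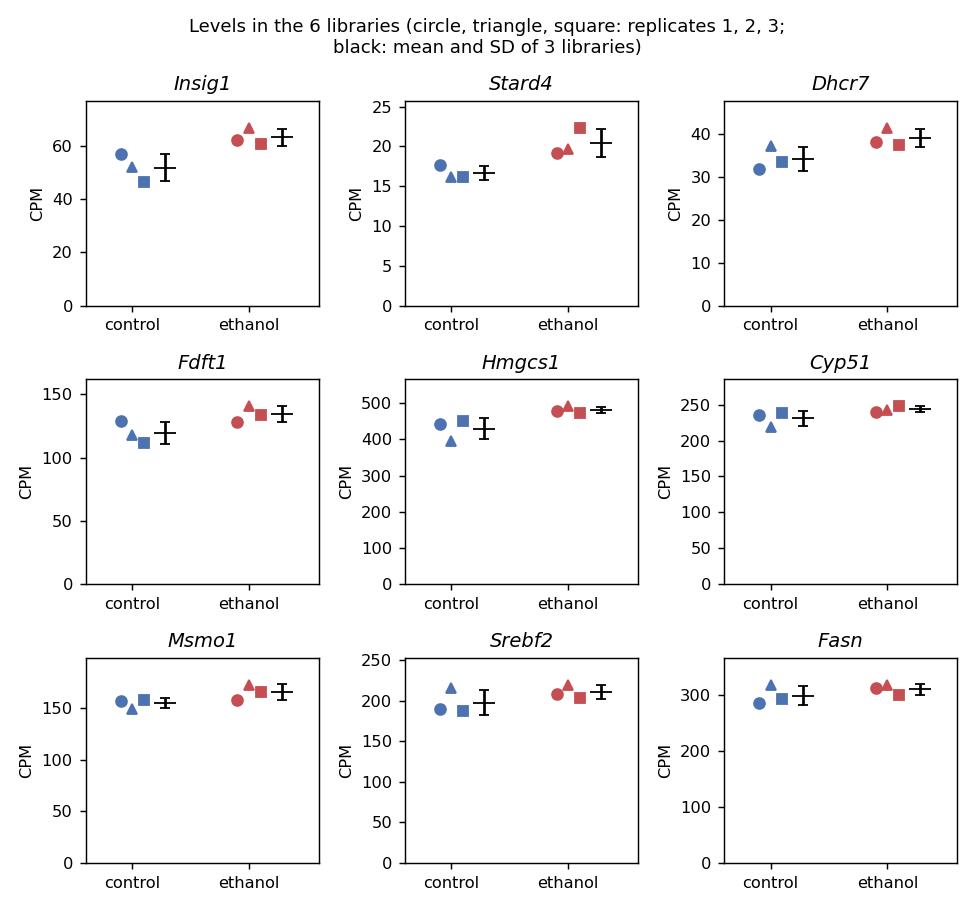
CPM of 9 genes in the 3 control (blue) and 3 ethanol (red) libraries, with the mean and SD of each group in black and axes starting at 0. For Insig1, Stard4, Dhcr7, Hmgcs1, Cyp51 and Msmo1 every ethanol library is above every control, by a small margin for Msmo1, whereas Fdft1, Srebf2 and Fasn overlap.

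In the mevalonate pathway, 5 of 6 genes had a log2 fold change above 0, with a median of 0.095, and 0 had an unadjusted p below 0.05. For 6 genes that count is near the share over all genes tested (1.57% higher and 2.58% lower). Hmgcs1 (NCBI gene 29637, chromosome 2 from 52427351 to 52445082, 11 exonic blocks) was at 442, 396 and 451 CPM in controls and 478, 491 and 473 CPM after ethanol. All ethanol libraries lay above the controls, of which replicate 2 was the lowest. Its log2 fold change was 0.16 (standard error 0.08, 95% interval -0.01 to 0.34). Mvd, the decarboxylase that yields isopentenyl diphosphate, and Fdps, the synthase of farnesyl diphosphate, had log2 fold changes of 0.15 (95% interval -0.05 to 0.35) and 0.08 (95% interval -0.06 to 0.23). Idi1, the isopentenyl diphosphate isomerase, was at 51.7 to 64.1 CPM in controls and 57.8 to 61.9 CPM after ethanol, so that the ethanol values lay inside the control range. The first kinase, Mvk, was high in ethanol replicate 3 alone, at 27.0 CPM, while the other ethanol libraries were at 20.5 and 20.8 CPM, within the control range of 19.7 to 22.3 CPM. Without that library the log2 fold change of Mvk turned from 0.11 to -0.03. Pmvk, the next kinase, had a log2 fold change of -0.03 (95% interval -0.20 to 0.14).

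From squalene to cholesterol, 10 of 11 genes had a log2 fold change above 0, with a median of 0.10. An unadjusted p below 0.05 was found for 2 (18.2%), both higher, against 1.57% of all genes tested higher and 2.58% lower. Dhcr7 (NCBI gene 64191, chromosome 1 from 217018916 to 217034890), the reductase that ends one route to cholesterol, was at 31.8, 37.2 and 33.4 CPM in controls and 38.2, 41.4 and 37.4 CPM after ethanol. The groups did not overlap, although ethanol replicate 3 exceeded control replicate 2 by very little. The log2 fold change was 0.19 (standard error 0.08, 95% interval 0.01 to 0.38, edgeR adjusted p = 1.0). Fdft1 (chromosome 15 from 46339248 to 46367302), the squalene synthase that commits isoprenoids to sterols, was at 129, 118 and 112 CPM in controls and 128, 141 and 134 CPM after ethanol. Control replicate 1 lay just above ethanol replicate 1, so the groups overlapped, and the log2 fold change was 0.17 (standard error 0.07, 95% interval 0.0015 to 0.34).

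Cyp51 and Msmo1, which remove methyl groups from lanosterol, had smaller differences that nonetheless separated the groups. Cyp51 (chromosome 4 from 27175564 to 27194018) was at 235.5, 218 and 239 CPM in controls and 239.8, 243 and 248 CPM after ethanol, a log2 fold change of 0.08 (95% interval -0.07 to 0.22). Msmo1 (chromosome 16 from 26859441 to 26875880) was at 157.3, 149.5 and 157.7 CPM in controls and 157.8, 173 and 166 CPM after ethanol, a log2 fold change of 0.10 (95% interval -0.05 to 0.24). In both genes the lowest ethanol library exceeded the highest control by under 1% of its level. With DESeq2's size factors Msmo1 overlapped, and with library size alone both did, which left 5 and 4 of the 29 genes apart. Over all genes tested, 3.46% were apart and higher and 5.41% apart and lower with DESeq2's size factors. With library size alone these shares were 2.29% and 7.04%.

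Other sterol genes followed different libraries. Sqle, the squalene epoxidase, and Hsd17b7, the sterol ketone reductase, were high in ethanol replicates 1 and 2 only. Sqle was at 105, 113 and 92.6 CPM in the ethanol replicates and 91.5 to 96.8 CPM in controls, and Hsd17b7 at 19.1, 20.5 and 16.0 CPM against 15.8 to 17.4 CPM. Lss, the lanosterol synthase, and Tm7sf2, a sterol reductase, were instead highest in ethanol replicate 3, without which Lss turned to -0.06. Lss was at 23.1, 24.6 and 30.0 CPM against 24.7 to 25.3 CPM in controls, and Tm7sf2 at 9.07, 10.1 and 11.9 CPM against 8.71 to 9.60 CPM. The log2 fold changes of these 4 genes ran from 0.06 for Lss to 0.18 for Tm7sf2 and Hsd17b7, each with an interval that included 0. Tm7sf2 was at 0.07 without ethanol replicate 3, and without ethanol replicate 2 Hsd17b7 was at 0.10 and Sqle at 0.07. Nsdhl and Sc5d, a demethylation and a desaturation enzyme, had log2 fold changes of 0.10 and 0.09, and the sterol isomerase Ebp had -0.02, all with intervals that included 0.

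Of the 6 genes of fatty acid synthesis, 4 had a log2 fold change above 0, and the median was 0.015 (-0.011 with library size alone). An unadjusted p below 0.05 or groups that did not overlap were found for 0 of the 6. For 6 genes these counts are near the shares over all genes tested. Those were 1.57% higher and 2.58% lower at that p, and 3.65% higher and 5.19% lower without overlap. Acly, which makes cytosolic acetyl-CoA for both branches, was at 306, 304 and 296 CPM in controls and 303, 310.003 and 292 CPM after ethanol, and its log2 fold change was -0.00094 (95% interval -0.15 to 0.14). Acaca, the acetyl-CoA carboxylase, and Fasn, the fatty acid synthase, had log2 fold changes of 0.02 (95% interval -0.10 to 0.14) and 0.05 (95% interval -0.11 to 0.22). The intervals of these 3 genes leave out the estimated log2 fold changes of Insig1 and Stard4, the largest increases among the 29. However, the intervals of Insig1 (from 0.09) and Stard4 (from 0.10) overlap those of the 3 genes. The intervals of Acly, Acaca and Fasn also include the medians of the mevalonate genes (0.095) and the squalene to cholesterol genes (0.10). The intervals of Scd (to 0.31) and Scd2 (to 0.38) include even the changes of Insig1 and Stard4. The difference between the branches was not itself tested. Because Hmgcs1 and Acly are both abundant, their ratio per length could be followed within libraries, and it was 1.79, 1.61 and 1.88 in controls and 1.95, 1.96 and 2.01 after ethanol, again chosen after the values were seen.

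The desaturases followed the library more than the treatment. Scd2 (chromosome 1 from 264059374 to 264072433) was at 3819, 3127 and 4262 CPM in controls and 3516, 3310.3 and 4468 CPM after ethanol, with a log2 fold change of 0.01 (standard error 0.16, 95% interval -0.36 to 0.38). Replicate 3 was the highest library in both groups. The summed astrocyte markers were likewise highest in replicate 3 of each group, at 3597 and 4055 TPM against 2979 to 3134 TPM in the other 4 libraries. Not all markers did so: Slc1a3 was at 851 TPM in ethanol replicate 1 and 812 TPM in ethanol replicate 3. Slc1a2 was at 461 TPM in control replicate 2 and 432 TPM in control replicate 3. Summed mature oligodendrocyte markers were lowest in control replicate 2 (3004 TPM), as was Scd2, but among controls highest in replicate 1 (6600 TPM). The part of astrocyte or oligodendrocyte content in Scd2 was not tested. Scd, a neighboring desaturase gene on the other strand (chromosome 1 from 264159966 to 264173061), was at 40.1 to 49.7 CPM in controls and 40.2 to 49.4 CPM after ethanol. Scd2 exceeded Scd per length by 68.8 to 89.3 times in every library. Reads that matched both genes equally well would not have been counted. Elovl6, a fatty acid elongase, had only 42 to 72 counts per library, and its log2 fold change of -0.34, the largest in size among the 29 genes, had a wide interval, from -0.85 to 0.17. Without control replicate 3 it was -0.15. Whether the gene model used for counting covers the transcripts of Elovl6 in brain was not tested, so its low count may not stand for its expression.

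Taken by library, the median difference of the genes from their control mean was above 0 in all 3 ethanol libraries for the mevalonate genes (0.03, 0.11 and 0.15 on the log2 scale in replicates 1, 2 and 3) and the squalene to cholesterol genes (0.06, 0.16 and 0.10). For the mevalonate genes the groups overlapped, since control replicates 1 and 3, at 0.05 and 0.03, lay above ethanol replicate 1, whereas for the squalene to cholesterol genes the controls lay between -0.03 and 0.02. For the fatty acid genes it was -0.03, 0.04 and -0.01 after ethanol and highest in control replicate 3, at 0.10. Ethanol replicate 1 thus differed least from the controls in the sterol genes, and without it the median of the 29 genes was 0.12. Mature oligodendrocyte markers varied within both groups, with sums of 6600, 3004 and 4708 TPM in controls and 3590.1, 4860.1 and 7562 TPM after ethanol, and their median log2 fold change was 0.15. Neuron markers summed to 4711 to 5541 TPM in controls and 4431 to 6120 TPM after ethanol. Their median log2 fold change was 0.12, against 0.087 for the 29 genes. By library their median difference from the control mean was 0.16, 0.28 and -0.12 in ethanol replicates 1, 2 and 3. The median log2 fold change was 0.06 for astrocyte, -0.06 for microglia and -0.01 for endothelium markers. For these lists and for microglia and endothelium the groups overlapped in summed level, and their part in the sterol values was not tested.

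**Figure D4:**
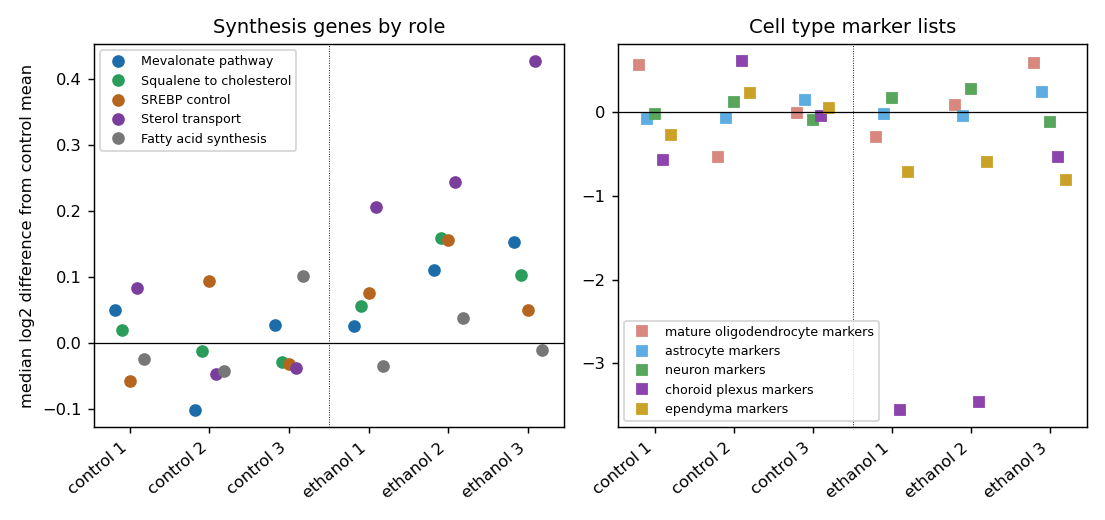
Median log2 difference from the control mean in each of the 6 libraries, for the synthesis genes by role (left) and for 5 lists of cell type markers (right, on a wider scale). Squalene to cholesterol genes are higher in each ethanol library than in any control, mevalonate genes overlap (control replicates 1 and 3 lie above ethanol replicate 1), fatty acid genes are highest in control replicate 3, and choroid plexus markers are near -3.5 in ethanol replicates 1 and 2.

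Related genes outside the 29 were followed in 4 lists, in which 0 genes passed the adjusted threshold with edgeR's quasi-likelihood test, as did 0% of all genes tested. At an unadjusted p below 0.05, 1.57% of all genes tested were higher and 2.58% lower. Groups did not overlap in 3.65% (higher) and 5.19% (lower). Counts of 0 or 1 in such short lists are near these shares. Of 14 other isoprenoid and sterol enzymes, 2 had an unadjusted p below 0.05, both higher after ethanol, and the median log2 fold change was 0.056. Acat2, the cytosolic thiolase that feeds Hmgcs1, was 1 of these 2, with a log2 fold change of 0.19 (standard error 0.07) and groups that did not overlap, whereas Acat1, its mitochondrial relative, was at -0.000356. Of 12 genes of SREBP processing and sterol sensing, 0 had an unadjusted p below 0.05, and the median was 0.031, with Erlin2 at -0.09 and the abundant Sec23a at 0.02. Of 21 tested genes of sterol uptake, transport, storage and efflux, 0 had an unadjusted p below 0.05 and the median was 0.028. Among them, the lipoprotein and reelin receptor Lrp8 was at -0.12, the neuronal cholesterol hydroxylase Cyp46a1 at 0.12 and the lysosomal sterol carrier Npc2 at 0.07. Of 27 other genes of fatty acid and lipid synthesis, 1 had an unadjusted p below 0.05 and the median was 0.009. That gene was Lpin1, a phosphatidate phosphatase, at 0.17 (standard error 0.07). Its groups did not overlap, nor did those of the acyl-CoA synthetase Acsl3, at 0.17, or of Dgat1, a triglyceride-forming enzyme, at -0.09, while the desaturase Fads1 was at -0.01.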

How the data were processed

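Amygdala RNA of 3 control and 3 ethanol libraries was sequenced with a stranded mRNA kit as single reads. Per the labels and file headers, the authors trimmed the reads, aligned them with STAR 2.7.0f and deposited raw counts from featureCounts 1.6.3 over the exons of NCBI genes on Rnor_6.0. Reads with several alignments were not counted, and strand was used. No column of another sample was present. Library depth is given with the results.

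Counts were compared with edgeR 4.0.16 in R 4.3.3 after filterByExpr (minimum counts 10 and 15) and TMM scaling, by its quasi-likelihood test, with p-values of 18141 genes adjusted after Benjamini and Hochberg and a threshold of 0.2. The 95% intervals come from the same fit. CPM are TMM-scaled, TPM use the deposited exon lengths, and SD are over libraries. For 1 gene, a two-sided exact permutation test used 20 regroupings of log2 CPM. Each library pools separate rats. Symbols came from a RefSeq table (29322 of 38445 identifiers), and promoter sequences from RefSeq on GRCr8. Alternatives were DESeq2 1.42.0, limma-voom 3.58.1, the likelihood ratio test, other scalings, no filter, a replicate block and leaving out libraries. The code was tested on simulated data. The members and lists were chosen with earlier results of these data known. All 29 members are named, with up to 4 genes of each related list (smallest p or highest level), not all of which are reported here.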

Additional observations from a re-analysis of the deposited data

How the results depend on the processing

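The choice of test moved the number of genes called over the whole series. Of the 29 genes, 0 were called under any of the 13 alternatives, with a lowest adjusted p of 0.407 (edgeR quasi-likelihood test without ethanol replicate 3). So few of all genes were called that 0 of 29 is near the share over all genes. At an adjusted p below 0.2, 75 of 18141 genes passed with DESeq2 and 77 with edgeR's likelihood ratio test. The quasi-likelihood test called 0 (753 at an unadjusted p below 0.05) and limma-voom 0 (780). Omitting single libraries gave counts from 0 to 83, with 83 without ethanol replicate 3 and 4 without ethanol replicate 1. At an unadjusted p below 0.05 there were 2 of the 29 genes with library size alone and 2 with the likelihood ratio test. Of all 18141 genes, 819 and 692 were below it in these fits. With each library left out there were 2 to 5 of the 29. The 5 came without ethanol replicate 3, where 1629 of 18356 genes were below it. The 2 came without control replicate 3 (570 of 18401 genes) or without ethanol replicate 2 (581 of 18414 genes). The median log2 fold change of the 29 genes was 0.061 with library size alone and ran from 0.072 to 0.12 with each library left out. Library size alone moved the median of all genes from 0.006 to -0.020, leaving 21 of the 29 genes and 41.7% of all genes above 0. It also turned the unadjusted calls over all genes from 285 higher and 468 lower to 194 and 625, and the groups that did not overlap to 2.29% higher and 7.04% lower.

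Of the 29 genes, 18 kept their sign in every alternative. With library size alone the log2 fold change turned to -0.010 for Srebf1, -0.017 for Insig2, -0.0084 for Acaca and -0.013 for Scd2, and with no filter to 0.00047 for Acly. With each library left out it ran from -0.033 to 0.075 for Srebf1, -0.028 to 0.048 for Insig2, -0.020 to 0.023 for Acly, -0.017 to 0.16 for Scd, -0.13 to 0.12 for Scd2, -0.0013 to 0.15 for Idi1, -0.034 to 0.17 for Mvk, -0.061 to 0.13 for Lss, -0.045 to 0.021 for Ebp and -0.083 to 0.00044 for Pmvk. It stayed between 0.22 and 0.35 for Insig1 and between 0.23 and 0.34 for Stard4. The causes of these shifts were not tested.

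With the replicate number as a block, 0 genes passed the threshold (lowest edgeR adjusted p 0.483, against 0.818 without the block). Over the whole series 1015 genes had an unadjusted p below 0.05, against 753 without the block. Of the 29 genes, 3 had an unadjusted p below 0.05, and the median of the 29 was 0.087. Over 14241 genes the deviations of same-numbered libraries from their group means correlated by 0.0264, 0.388 and 0.211 in pairs 1, 2 and 3. Between libraries of different number the correlation ran from -0.427 (control replicate 2 with ethanol replicate 3) to 0.305 (control replicate 1 with ethanol replicate 3). Whether same-numbered libraries share more than a number was not tested. Each group had 3 libraries of 2 pooled rats each, and the parts of library spread and depth in the precision were not tested.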
